A study of Mus musculus with 21 samples.

Results

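The comparison described here sets mouse embryonic stem cells treated with CX-5461 for 4 h against the same cells at 0 h, before any inhibitor was added. Its members were chosen by time and agent: 3 treated and 3 control libraries of the 21 in the series, read over the 14666 genes that had a deposited log2 value above 0 in at least 3 of the 21 libraries, out of 20900 genes listed. All cells were E14 embryonic stem cells, a line of the 129 strain with no allele or transgene named in the labels, kept in serum and leukaemia inhibitory factor (LIF), which holds such cells in the pluripotent state. Treated cells received 1 µM CX-5461 in fresh medium on the day after plating. The series also holds CX-5461 at 2 h and 8 h and BMH-21, another inhibitor, at 1 µM for 2, 4 and 8 h, with 3 libraries each. All 6 treated groups share the 0 h libraries as their control, and no vehicle or medium change was sampled at 4 h, so time in fresh medium and CX-5461 cannot be told apart. The labels do not say whether replicates came from separate cultures, and p-values may measure only the technical spread between these libraries.

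CX-5461 was developed as an inhibitor of RNA polymerase I, the enzyme that transcribes the ribosomal RNA genes in the nucleolus, and it is also known to stabilise G-quadruplex DNA and to poison topoisomerase II. BMH-21 is a DNA intercalator that stops the same polymerase and leads to the loss of its large subunit. When ribosome assembly stalls, the free ribosomal proteins RPL5 and RPL11 are known to bind MDM2, the ubiquitin ligase that keeps the transcription factor p53 low, and p53 target genes are then transcribed. Embryonic stem cells hold their identity through a network of transcription factors (Oct4, encoded by Pou5f1, with Sox2, Nanog and others). They also depend on LIF, BMP, Nodal, FGF and WNT signals.

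p53 binds DNA as a tetramer, and its full site is a pair of half-sites of 10 bases each. The promoters of 4 genes that rose after CX-5461 are shown because each holds at least 1 match to the p53 half-site within the window from 250 bases before to 50 bases after the start of transcription (RefSeq, GRCm38.p6, the same primary sequence as mm10). Capitals mark the half-site, searched on both strands. They are Krt5, a basal keratin, at chr15:101712856-101713155 (minus strand); Cdkn1a, the cyclin-dependent kinase inhibitor p21, at the upstream one of its 2 starts, chr17:29090729-29091028 (plus strand); Mdm2 at chr10:117710709-117711008 (minus strand); and Ccng1, cyclin G1, at chr11:40755237-40755536 (minus strand).
Krt5: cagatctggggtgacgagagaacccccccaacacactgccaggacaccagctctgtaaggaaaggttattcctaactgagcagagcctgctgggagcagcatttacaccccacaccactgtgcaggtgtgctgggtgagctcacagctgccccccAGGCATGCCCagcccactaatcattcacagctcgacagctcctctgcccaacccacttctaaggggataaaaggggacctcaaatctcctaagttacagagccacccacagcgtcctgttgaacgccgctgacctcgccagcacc
Cdkn1a: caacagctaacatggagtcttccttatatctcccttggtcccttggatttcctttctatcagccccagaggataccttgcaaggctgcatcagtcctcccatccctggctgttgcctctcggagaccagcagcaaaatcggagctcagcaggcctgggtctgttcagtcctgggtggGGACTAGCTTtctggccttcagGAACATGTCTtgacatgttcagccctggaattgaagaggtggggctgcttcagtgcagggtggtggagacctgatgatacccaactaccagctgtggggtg
Mdm2: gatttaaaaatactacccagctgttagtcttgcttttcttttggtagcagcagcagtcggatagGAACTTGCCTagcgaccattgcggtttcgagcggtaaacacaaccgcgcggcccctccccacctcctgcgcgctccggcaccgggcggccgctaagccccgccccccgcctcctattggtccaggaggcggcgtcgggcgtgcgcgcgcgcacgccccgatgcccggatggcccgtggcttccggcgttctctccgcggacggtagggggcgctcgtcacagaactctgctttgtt
Ccng1: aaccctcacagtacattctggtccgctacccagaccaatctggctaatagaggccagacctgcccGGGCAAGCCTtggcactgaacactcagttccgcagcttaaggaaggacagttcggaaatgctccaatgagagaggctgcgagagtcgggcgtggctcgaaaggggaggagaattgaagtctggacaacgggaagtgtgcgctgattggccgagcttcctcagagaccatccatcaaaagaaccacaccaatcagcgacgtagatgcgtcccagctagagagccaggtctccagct
The matches begin 95 bases before the start in Krt5, 73 and 51 bases before it in Cdkn1a, 186 in Mdm2 and 185 in Ccng1. A match to the p53 half-site stood in 8.36% of all 32851 promoters in the table and in 7.05% of the 14009 promoters of tested genes (11000 of the 14666 genes had an entry). It stood in 9.93% of the 1481 promoters of genes at least 2-fold higher under both scalings described below, in 4.96% of the 464 promoters of genes at least 2-fold lower, and in 15 of the 60 promoters (25%) of the p53 target lists. An AP-1 site, TGANTCA on either strand, stood in 7.81% of all promoters, 5.19% of those of tested genes, 7.49% of those of the higher and 4.09% of those of the lower genes. A CRE, TGACGTCA, stood in 1.79%, 2.94%, 1.96% and 1.08% of the same 4 sets. A match describes letters in a window and is no evidence of binding.

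The deposited values are log2 counts per scaled library size, with 0.5 read added to each count. In the 3 controls a value of 0 stands for 45 to 47 reads and after CX-5461 for 46 to 65 reads. The 6 libraries held 47900214 to 56161917 reads assigned to genes. The scale differed within the treated group: the median over tested genes was 4.18, 4.44 and 4.24 in CX-5461 replicates 1 to 3 and 4.50, 4.50 and 4.34 in the controls, so replicate 2 sits above the others for most genes. For that reason the shares of genes called in each comparison are given as deposited and after every library was centred on its own median over the tested genes. Marker sums, values of single genes and list medians are on the deposited scale unless another is named. A gene was called when its limma adjusted p (Benjamini-Hochberg over all 14666 genes, all 7 groups in 1 fit) was under 0.05.

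The identity of the cells was read from their defining markers. Pou5f1, Sox2, Nanog, Sall4, Zfp42 and Esrrb had at least 8017 reads in each of the 6 libraries. Markers of other cell types were present too, given here as the summed linear level of each list. These sums are on the deposited scale, where the library medians after CX-5461 stood at -0.158 relative to the controls. The level ran from 867 to 933 in the controls and from 624 to 762 after CX-5461 for 16 fibroblast markers. For 17 primitive endoderm markers it ran from 668 to 778 and from 578 to 700. For 16 trophectoderm markers it ran from 131 to 148 and from 92.8 to 108. It ran from 15.1 to 18.1 and from 24.2 to 26.7 for 14 mesoderm markers, and from 464 to 486 and from 267 to 317 for 29 neural markers, several of which stem cells also express. Lum (fibroblast), Ttr (endoderm), Prl3d1 (trophectoderm), Msgn1 (mesoderm), and Zic4 and Nkx6-1 (neural) had 3 reads or fewer in all 6 libraries. They were the only such members: every other marker summed here had more than 3 reads in at least 1 of the 6. In bulk RNA, fewer cells of a type and less RNA per cell cannot be told apart, and the part of other cell types in the results below was not tested.

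After 4 h of CX-5461, 70.9% of the tested genes were called against the control, 19.8% of the tested genes being higher and 51.2% lower. The rises were fewer and larger than the falls: 10.5% of genes were called and at least 2-fold higher, and 5.53% at least 2-fold lower (12% and 3.35% after centring). The median log2 fold change over all genes moved from -0.28 on the deposited scale to -0.12 once centred and to -0.03 with median-ratio library factors, and the share of calls that were lower went from 72.1% to 61.6% and 52.3%. After centring 74.2% of the tested genes were called, 28.5% being higher (4178 genes) and 45.7% lower. Of the genes called as deposited, 2895 higher (19.7% of tested genes) and 6699 lower ones (45.7%) were called in the same direction after centring, 809 were no longer called and 0 turned. All treated libraries lay above every control for 20.8% of genes and below every control for 47.6%. Each gene named below as having risen or fallen after CX-5461 was called under both scalings. Counts over gene lists are of calls on the deposited scale, with the number under both scalings where it is smaller. Genes called higher only after centring are left out of these counts. For some lists the number higher after centring is given too. All such counts are to be read beside these shares of all genes.

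**Figure D1:**
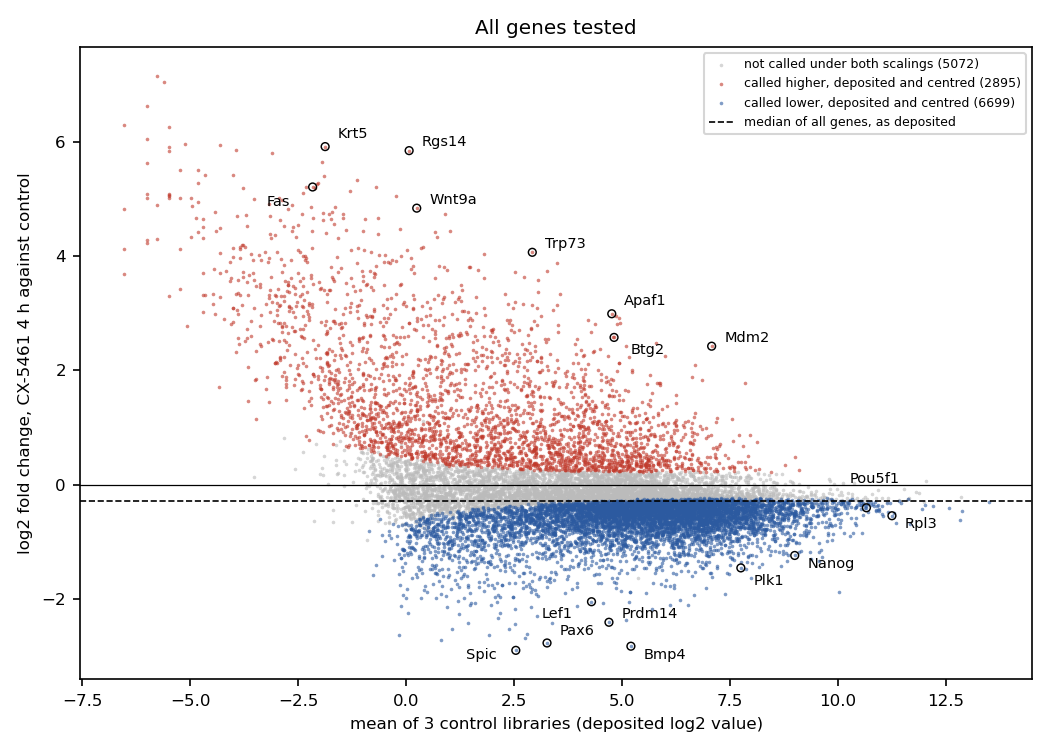
Log2 fold change of CX-5461 at 4 h against control for all 14666 tested genes (vertical axis), plotted against the mean deposited log2 value of the 3 controls (horizontal axis). Red and blue points were called higher (2895) and lower (6699) as deposited and after centring. Large rises such as Krt5 (5.91) start from low control values, while falls such as Bmp4 (-2.82) and Nanog (-1.23) start from expressed genes.

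The genes that rose and those that fell differed in where they started. The 1541 genes at least 2-fold higher under both scalings had a median control value of 0.16 (quartiles -1.64 and 2.43), and 48% of them lay below 0 in the control mean, against 8.6% of all tested genes. The 492 genes at least 2-fold lower under both scalings had a median control value of 3.44 (quartiles 1.69 and 5.80), beside 4.45 for all tested genes. A gene with every control below 0 could enter the test only through treated libraries of any of the 6 treated groups. Of the tested genes, 22 would not have passed without the CX-5461 4 h libraries. The choice of genes thus fixes part of the low start of the rising genes. A gene at the lowest values in the controls could not fall 2-fold, so part of the start of the falling genes is fixed too. The filter's edge lay between 4932412D23Rik, whose third-highest library read 0.000895, and Spdye4b at -0.00603. The median genomic span was 26 kb for the higher, 22 kb for the lower and 22.5 kb for all tested genes.

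Krt5, which encodes a keratin of basal epithelial cells, gave the largest rise among genes with a mean value of at least 0 over the 6 libraries. It had 10, 10 and 18 reads in the controls and 1085, 733 and 946 after CX-5461. On the log2 scale Krt5 read -2.16, -2.11 and -1.36 in the controls and 4.04, 3.97 and 4.10 after CX-5461, and every treated library lay more than 5 units above every control. The log2 fold change was 5.91 ± 0.14 (SE), with limma adjusted p = 4.39e-73, and 6.07 after centring. Krt5 lies at chr15:101707069-101712905 in GRCm38.p6.

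Rgs14, a regulator of G protein signalling that also binds Rap and Ras, stood beside it. Rgs14 read 0.27, 0.09 and -0.16 in the controls and 5.88, 5.99 and 5.87 after CX-5461, from 42 to 56 reads in the controls to 2973 to 3888 reads after CX-5461. Its log2 fold change was 5.84 ± 0.12 (SE; limma adjusted p = 8.71e-81). Rgs14 lies at chr13:55369732-55384687.

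The other 10 genes with the largest rises were taken only from genes called under both scalings whose treated and control values did not overlap. Dusp13, a dual-specificity phosphatase, had a log2 fold change of 5.64, Siglec1, a sialic acid receptor of macrophages, 5.40, and Krt15, a basal keratin, 5.33. P2rx6, an ATP-gated channel subunit, had 5.28, the exchange factor gene Arhgef33 5.25, and Itgb2, the beta chain of leukocyte integrins, 5.22. Wnt8b, a WNT ligand of the early forebrain, had 5.22, Fas, the death receptor, 5.21, Fosl1, an AP-1 subunit, 5.19, and Pou4f3, a transcription factor of hair cells, 5.13. The control values of these 10 lay between -3.38 and -0.36, which stand for 4 to 35 reads.

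Most of the keratin genes tested rose. Of 37 with values, 18 were below the filter and were not tested. A keratin with every control below 0 could enter the test only through treated libraries. Of the 19 tested, 12 rose and 5 fell, 11 of them by at least 2-fold upward and 0 downward, and the median log2 fold change was 1.55 beside -0.28 over all genes, and 0.64 under quantile normalization. Those that rose included Krt5, Krt15 and Krt7, a simple-epithelial keratin (1.14, 0.98 and 0.85 in the controls and 3.56, 3.60 and 3.50 after CX-5461). Krt8, Krt18 and Krt42, expressed in the controls, fell. Krt8 read 4.06, 4.12 and 3.83 in the controls and 3.60, 3.59 and 3.57 after CX-5461, its partner Krt18 3.66, 3.65 and 3.42 in the controls and 2.87, 3.11 and 2.80 after CX-5461. The log2 fold changes of Krt8, Krt18 and Krt42 were -0.42, -0.65 and -0.75. For Krt8 the call was lost with median-ratio factors (log2 fold change -0.17, limma adjusted p = 0.054). In the RGS family, 7 of 14 genes rose and 7 fell. Rgs3 rose beside Rgs14 (log2 fold change 2.47), while Rgs20 (-1.04) and Rgs11 (-1.01) fell.

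**Figure D2:**
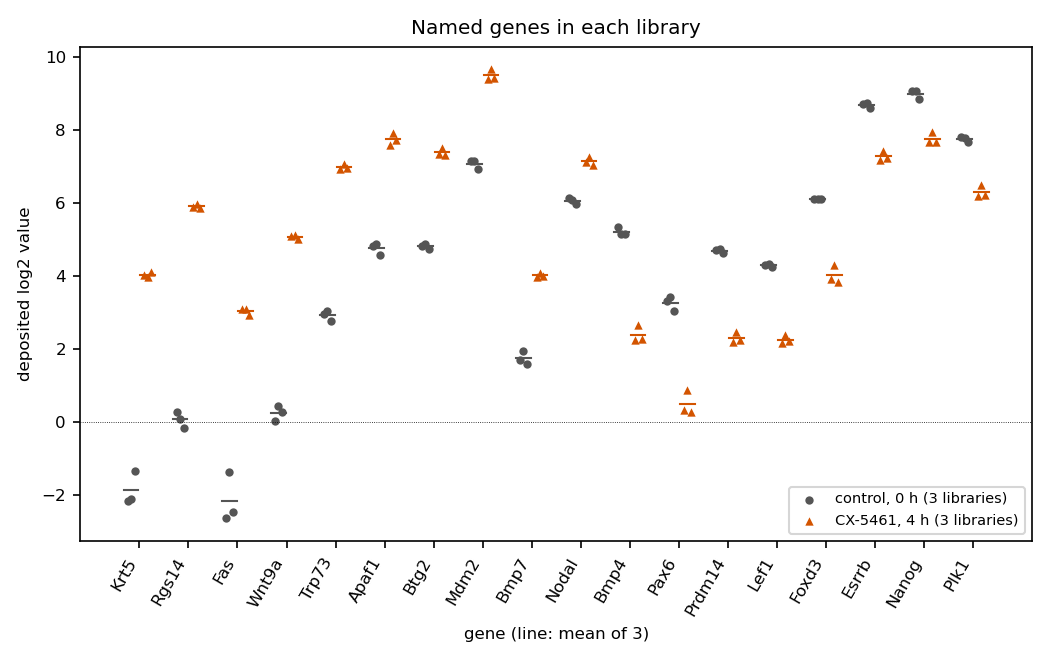
Deposited log2 values (vertical axis) of 18 named genes in the 3 control libraries (grey circles) and the 3 CX-5461 4 h libraries (orange triangles), with a line at each mean. For every gene drawn the 2 groups are apart, from Krt5 at the left (below -1.3 in controls, above 3.9 after CX-5461) to Plk1 at the right (above 7.6 and below 6.5).

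The p53 gene itself fell while most genes of the p53 lists rose. Trp53, the p53 gene, read 9.70, 9.73 and 9.54 in the controls and 9.05, 9.29 and 9.09 after CX-5461, a log2 fold change of -0.51 ± 0.10 (SE; limma adjusted p = 4.97e-06). Trp73, which encodes the related factor p73, went the other way and read 2.97, 3.03 and 2.76 in the controls and 6.94, 7.07 and 6.95 after CX-5461. At 4.07 ± 0.11 (SE; limma adjusted p = 7.48e-66) its rise was the largest in the list of p53 and its feedback regulators, where 6 of 9 tested genes rose and 2 fell (median 1.01, and 1.17 after centring). Mdm2, the ligase that degrades p53, read 7.15, 7.14 and 6.93 in the controls and 9.41, 9.66 and 9.43 after CX-5461 and rose by 2.42 ± 0.10. Ccng1, a p53 target that recruits a phosphatase to Mdm2, read 7.94, 7.92 and 7.71 in the controls and 9.53, 9.83 and 9.55 after CX-5461 and rose by 1.77 ± 0.10.

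Antiproliferative genes of the p53 lists moved in both directions. Whether each member is a p53 target in these cells was not tested. Of 14 tested, 7 rose and 3 fell, with a median of 0.48. Ptprv, a phosphatase gene induced by p53 in mouse cells, read 3.59, 3.59 and 3.50 in the controls and 6.82, 6.97 and 6.87 after CX-5461 (log2 fold change 3.33). Plk2, a kinase of centriole duplication, rose by 2.81 and Btg2, an antiproliferative factor, by 2.58. Cdkn1a read 5.26, 5.32 and 5.11 in the controls and 7.18, 7.30 and 7.15 after CX-5461, a rise of 1.98 ± 0.10 (SE; limma adjusted p = 5.50e-37). Cdkn1b, which encodes the sister inhibitor p27, fell: it read 4.78, 4.86 and 4.60 in the controls and 3.34, 3.61 and 3.34 after CX-5461, a log2 fold change of -1.32.

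Most apoptotic targets rose. Of 17 tested, 13 rose, 9 of them at least 2-fold, and 1 fell, with a median of 1.48 as deposited and 1.64 centred. Apaf1, the scaffold of the apoptosome, read 4.83, 4.87 and 4.59 in the controls and 7.59, 7.93 and 7.74 after CX-5461, a rise of 2.99 ± 0.11 (SE; limma adjusted p = 1.70e-51). The BH3-only genes Bbc3 (Puma) and Pmaip1 (Noxa) rose by 1.83 and 1.98, and Phlda3, an inhibitor of AKT at the membrane, by 2.14. Bid, another BH3-only gene, was the one that fell (-0.38). Fas read -2.64, -1.38 and -2.48 in the controls and 3.10, 3.08 and 2.94 after CX-5461.

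Among metabolic and repair targets, 12 of 19 rose, 9 at least 2-fold, and 2 fell (median 0.89). Ddit4, an inhibitor of mTORC1, read 4.91, 4.44 and 5.01 in the controls and 7.33, 7.43 and 7.36 after CX-5461 (log2 fold change 2.59), and Lpin1, a phosphatidate phosphatase, rose by 2.55. Sesn2, a sestrin that senses leucine, rose by 0.89. Tigar, which lowers glycolytic flux, was lower in every treated library (6.28, 6.32 and 6.15 in the controls and 5.28, 5.50 and 5.31 after CX-5461) and fell by 0.88.

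AP-1, the dimer of Fos, Jun and Atf proteins that answers stress and mitogens, was mostly higher at the level of its genes. Of 14 tested genes 11 rose, 7 of them at least 2-fold, and 2 fell (median 0.93). Fosl1 read -2.85, -1.75 and -1.71 in the controls and 3.07, 3.14 and 3.04 after CX-5461, Atf3 0.74, 0.77 and 0.49 in the controls and 3.55, 3.59 and 3.52 after CX-5461, and Jun 3.69, 3.75 and 3.63 in the controls and 5.59, 5.70 and 5.63 after CX-5461. Their log2 fold changes were 5.19, 2.88 and 1.95. Jund, already expressed, fell by 0.66. Of 23 other immediate early genes, 11 rose and 7 fell. Dusp2, a nuclear MAP kinase phosphatase, rose by 2.43 and Btg1, an antiproliferative factor, by 1.59, whereas Myc, the growth regulator, fell from 6.49, 6.50 and 6.32 to 5.78, 5.92 and 5.67.

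BMP ligands moved in opposite directions. Bmp4, the ligand that with LIF sustains self-renewal by inducing Id genes, read 5.33, 5.14 and 5.14 in the controls and 2.24, 2.65 and 2.26 after CX-5461. Its log2 fold change was -2.82 ± 0.13 (SE; limma adjusted p = 1.55e-42), -2.66 after centring, and it lies at chr14:46383525-46390669. Bmp7, a ligand of the same family, read 1.71, 1.94 and 1.58 in the controls and 3.99, 4.07 and 4.01 after CX-5461 and rose by 2.28 ± 0.12. Among 26 genes of the pathway 5 rose and 17 (15 under both scalings) fell, with a median of -0.47. The receptor gene Bmpr1b fell by 1.78, the transducer gene Smad1 rose by 0.69, and the target Id1, an inhibitor of differentiation factors, read 7.35, 7.31 and 7.02 in the controls and 6.04, 6.25 and 5.99 after CX-5461 (-1.13).

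In the Nodal pathway, which acts through Smad2 and Smad3, 5 of 13 genes rose and 7 (6 under both scalings) fell. Nodal, the ligand, read 6.13, 6.09 and 5.98 in the controls and 7.11, 7.27 and 7.05 after CX-5461, a rise of 1.07 ± 0.10 (SE; limma adjusted p = 2.68e-17). Smad3 read 3.28, 3.37 and 3.15 in the controls and 5.22, 5.50 and 5.31 after CX-5461 and rose by 2.07. The inhibitor Lefty1, a Nodal target, rose by 0.81, while the ligand gene Gdf3 fell by 1.13 and the co-receptor gene Tdgf1 by 0.85. Nodal, Smad3 and Lefty1 were above every control in all 3 treated libraries, and Gdf3 and Tdgf1 below.

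FGF4 drives stem cells out of the naive state through the ERK kinases. Of 16 tested FGF ligands, receptors and binding proteins 5 rose and 9 fell. Fgf4 read 7.87, 7.89 and 7.69 in the controls and 6.96, 7.22 and 6.98 after CX-5461 (-0.76). Fgf17, a ligand of the early embryo, fell by 1.88 and Fgf10, a ligand of branching organs, by 1.76. The receptor gene Fgfr4 rose by 2.60 and Fgfbp3, a carrier of FGFs, by 2.76. Of 16 genes that report ERK activity 11 fell and 2 rose (median -0.69). Etv1, a transcription factor, fell by 1.58, Ccnd1, cyclin D1, by 1.22, and Spry4, a feedback inhibitor of ERK, by 0.94, while Phlda1 rose by 1.37.

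Among WNT genes the ligands Wnt9a and Wnt3a rose, and Lef1 and Axin2 fell. Wnt9a read 0.02, 0.44 and 0.28 in the controls and 5.10, 5.13 and 5.02 after CX-5461, a rise of 4.84 ± 0.12 (SE; limma adjusted p = 2.89e-69). Wnt3a read -0.40, -0.32 and -0.59 in the controls and 2.70, 2.64 and 2.62 after CX-5461 and rose by 3.09. Lef1, a transcription factor of the pathway and one of its targets, read 4.31, 4.32 and 4.24 in the controls and 2.16, 2.38 and 2.21 after CX-5461 and fell by 2.04. Axin2, the feedback inhibitor used as a readout of the pathway, read 4.79, 4.98 and 4.85 in the controls and 2.98, 3.45 and 3.28 after CX-5461 and fell by 1.64. Over the whole list of 24 genes 11 rose and 9 fell.

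Genes of the LIF and Notch pathways moved in both directions. Of 15 LIF and STAT3 pathway genes 3 rose and 10 fell (median -0.56). The ligand gene Lif rose from 2.51, 2.49 and 2.48 to 4.22, 4.44 and 4.10, and Il6st, the shared receptor chain gp130, fell from 6.58, 6.58 and 6.44 to 4.84, 5.24 and 5.01. Socs2, a feedback inhibitor of cytokine signalling, fell by 1.52. In the Notch list of 18, 8 rose and 8 fell. Nrarp, a feedback inhibitor of Notch, rose by 2.58 and Hey2, a target repressor, by 2.41. Notch4, a receptor gene, fell by 1.46, Hes3 by 1.44 and Hes1 by 0.64.

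Pluripotency genes fell. All 4 of 4 core factors fell, but by unequal amounts. Pou5f1 read 10.71, 10.73 and 10.54 in the controls and 10.20, 10.39 and 10.19 after CX-5461, a log2 fold change of -0.40 ± 0.10 (SE; limma adjusted p = 0.000152), and lost its call under quantile normalization (limma adjusted p = 0.052). Nanog read 9.06, 9.08 and 8.86 in the controls and 7.69, 7.95 and 7.66 after CX-5461, and fell by 1.23 ± 0.10 (SE; limma adjusted p = 2.64e-21). Sall4 fell by 1.21 and Sox2 by 0.80.

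Of 23 naive factors 22 fell, 10 at least 2-fold, and 0 rose (median -0.96 as deposited, -0.80 centred). Spic, an Ets factor, gave the largest fall of all tested genes in the fit and read 2.69, 2.58 and 2.35 in the controls and -0.57, -0.25 and -0.24 after CX-5461. Prdm14, which holds back FGF signalling and DNA methylation in these cells, read 4.72, 4.74 and 4.63 in the controls and 2.19, 2.46 and 2.24 after CX-5461, a log2 fold change of -2.40 ± 0.12 (SE; limma adjusted p = 1.67e-37). Esrrb, a nuclear receptor of the network, read 8.71, 8.74 and 8.61 in the controls and 7.17, 7.42 and 7.24 after CX-5461 and fell by 1.41. Tbx3 fell by 0.96 and Klf4 by 0.65.

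The formative and primed factors, which mark the next stage of development, fell as well. Of 21 tested, 20 (19 under both scalings) fell, 10 at least 2-fold, and 0 rose (median -0.98). Foxd3, a forkhead repressor, read 6.11, 6.12 and 6.12 in the controls and 3.93, 4.30 and 3.83 after CX-5461, a log2 fold change of -2.10 ± 0.12 (SE; limma adjusted p = 3.36e-33). Otx2, the factor that starts the exit from the naive state, read 6.25, 6.18 and 6.05 in the controls and 4.73, 5.17 and 4.71 after CX-5461 and fell by 1.29. Zic2, a zinc finger factor of the primed state and neural plate, fell by 1.92 and the related Zic5 by 1.85.

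Neural factors had the lowest median of the 48 lists as deposited, -1.24. Of 29 listed, 10 were below the filter. Of the 19 tested, 14 were lower, 10 at least 2-fold, and 2 higher. Pax6, a regulator of the eye and forebrain, read 3.32, 3.44 and 3.03 in the controls and 0.34, 0.88 and 0.27 after CX-5461, a log2 fold change of -2.76 ± 0.17 (SE; limma adjusted p = 1.47e-31). Sox11 fell by 2.06, and Neurod1, a differentiation factor of neurons, rose from 2.96, 2.88 and 2.56 to 4.55, 4.80 and 4.39. Genes of other lineages moved both ways among those tested. The filter left out 3 primitive endoderm, 3 trophectoderm, 5 mesoderm and 6 fibroblast markers. Primitive endoderm markers gave 5 higher and 7 (5 under both scalings) lower of 14, with Pdgfra, a growth factor receptor, at 1.77, the endoderm factor Gata6 at 0.49 and Sox7 at -1.17. Without control replicate 3 the call of Gata6 was lost (log2 fold change 0.36, limma adjusted p = 0.060). Trophectoderm markers gave 2 higher and 9 lower of 13, with Krt7 higher and Gata2, a placental factor, at -1.59. Mesoderm markers gave 3 higher and 2 lower of 9, with Mesp2 of the segmenting mesoderm at 2.60 and Eomes of the primitive streak at -1.05. Fibroblast markers gave 4 higher and 3 lower of 10, with Col1a1, a collagen chain, at 1.04 and Thy1, a surface glycoprotein, at -0.73.

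The rest of the 12 largest falls belonged to no single group. Nfib, a nuclear factor of lung and brain, fell by 2.67, Foxr2, a forkhead gene, by 2.62, Ankrd34a by 2.60 and Pramel6, a gene of naive cells, by 2.51. Rasgrp1, an activator of Ras, fell by 2.44, Lrtm2 by 2.42, the helix-loop-helix repressor Msc by 2.41, and Lpar1, a receptor of lysophosphatidic acid, by 2.37. Lpar1 read 5.17, 5.12 and 4.96 in the controls and 2.64, 3.00 and 2.51 after CX-5461. These 8 too were taken only from genes called under both scalings whose treated and control values did not overlap.

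**Figure D3:**
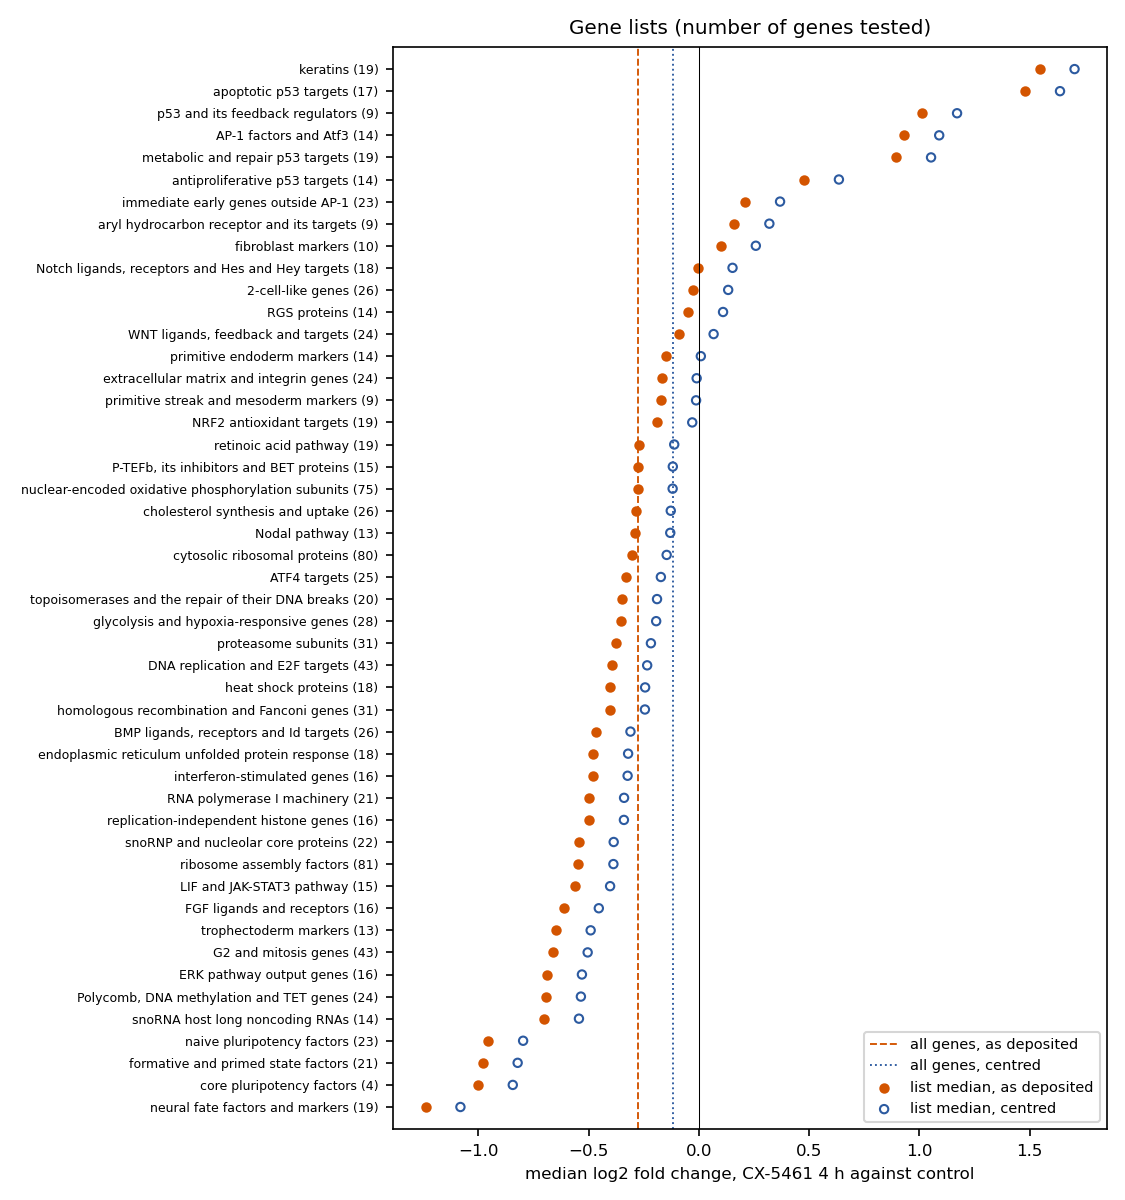
Median log2 fold change of CX-5461 at 4 h against control (horizontal axis) for 48 gene lists, as deposited (orange) and after centring (blue circles), with the medians of all tested genes as dashed (-0.28) and dotted (-0.12) lines. Keratins, apoptotic p53 targets and AP-1 genes lie at the right, and the neural, pluripotency and formative lists at the left. The medians of 13 lists, named in the text, change sign among the 4 scalings tried.

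Genes of the machinery that CX-5461 inhibits were lower. Of 21 genes of the RNA polymerase I machinery 17 (16 under both scalings) fell and 0 rose, or 1 after centring (median -0.50, -0.34 centred). Twistnb, a polymerase I subunit, read 6.30, 6.31 and 6.08 in the controls and 5.01, 5.44 and 5.15 after CX-5461 and fell by 1.03. Ubtf, which binds ribosomal RNA genes and opens them, read 8.85, 8.86 and 8.79 in the controls and 7.90, 8.17 and 7.94 after CX-5461, a log2 fold change of -0.83 ± 0.10 (SE; limma adjusted p = 2.93e-12). Libraries made from polyadenylated RNA do not give the level of mature ribosomal RNA.

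Nucleolar and assembly genes fell in the same range. Of 22 snoRNP and nucleolar core genes 19 (18 under both scalings) fell (median -0.55). Nop56, a core protein of box C/D particles, fell by 0.87, Gnl3, nucleostemin, by 0.87, and Npm1, nucleophosmin, by 0.45. The call of Npm1 was lost under quantile normalization (-0.11, limma adjusted p = 0.14). Of 81 assembly factors 71 (70 under both scalings) fell and 2 rose (median -0.55), from Nmd3, the export adaptor of the large subunit, at -1.05, to Pwp2, of the small subunit processome, at 0.31. Of 14 noncoding RNAs in the list of snoRNA hosts 12 fell (median -0.70), with Snhg5 at -1.23 and Gas5 at -0.93. The list also holds Rmrp, the RNA of RNase MRP and no snoRNA host, which had its highest value (0.50) and was not called.

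For the ribosomal proteins the size of the call depended on the scale. As deposited 69 of 80 were lower and 0 higher, after centring 46 were lower, and the median was -0.30, -0.15, -0.05 and 0.05 as deposited, centred, with median-ratio factors and under quantile normalization. Rpl22l1 fell by 0.57 and Rpl3 by 0.54. Oxidative phosphorylation subunits depended on the scale too: 52 of 75 were lower as deposited and 27 after centring, and their median ran from -0.28 to 0.04 over the 4 scalings. Ndufs7, of complex I, fell by 0.48. Proteasome subunits were lower for 28 of 31 and, after centring, 24, with a median from -0.38 to 0.01, and Psmd7, of the regulatory particle, fell by 0.63.

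Cell cycle genes were lower. Of 43 G2 and mitosis genes 40 (39 under both scalings) fell, 5 at least 2-fold, and 0 rose, or 2 after centring (median -0.66). Plk1, the kinase that starts mitosis, read 7.80, 7.79 and 7.66 in the controls and 6.18, 6.49 and 6.22 after CX-5461, a log2 fold change of -1.45 ± 0.11 (SE; limma adjusted p = 4.93e-25), and Ccnb1, cyclin B1, fell by 0.84. Of 43 replication genes and E2F targets 37 (34 under both scalings) fell and 0 rose, or 4 after centring (median -0.39). Cdca7, which supports DNA methylation at replication, fell by 1.27 and Ccne1, cyclin E1, by 0.94. Of 20 genes for topoisomerases and the repair of their breaks 15 fell and 1 rose, or 3 after centring. Top2a, one of the reported targets of CX-5461, read 10.40, 10.45 and 10.17 in the controls and 9.35, 9.67 and 9.46 after CX-5461 and fell by 0.85, and Top1mt, the mitochondrial topoisomerase, rose by 0.74. Homologous recombination and Fanconi genes gave 21 (19 under both scalings) lower and 2 (6 after centring) higher of 31, with the nuclease scaffold gene Slx4 at 0.59.

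Genes of other stress pathways are set beside all tested genes, of which 51.2% were lower and 19.8% higher (45.7% and 28.5% after centring). Of 18 genes of the endoplasmic reticulum unfolded protein response 12 (11 under both scalings) fell and 1 rose, or 6 after centring (median -0.48). Xbp1, its transcription factor, read 7.13, 7.06 and 6.90 in the controls and 5.80, 6.16 and 5.88 after CX-5461 and fell by 1.08, Manf, a secreted factor of the reticulum, by 0.93, and Hspa5, the chaperone BiP, by 0.54. Of 25 ATF4 targets 14 fell and 3 rose, or 8 after centring. Atf4 itself fell by 1.19 and Chac1, a glutathione-degrading enzyme, by 1.29, and Atf5 rose by 0.88. Heat shock genes gave 13 (10 under both scalings) lower and 4 higher of 18: Cryab, a small heat shock protein, and Hspa1a, the inducible Hsp70, rose by 1.96 and 1.71, and Bag3, a co-chaperone, fell by 1.12. Of 19 NRF2 antioxidant targets 2 (6 after centring) rose and 9 (7 under both scalings) fell, with a median from -0.19 to 0.16 over the 4 scalings. The 2 subunits of the enzyme that limits glutathione synthesis moved apart, Gclc at 0.46 and Gclm at -0.60.

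In the retinoic acid list 6 of 19 rose and 8 fell. The enzymes Cyp26b1 and Cyp26a1 both clear retinoic acid. Cyp26b1 read -1.91, -3.70 and -2.87 in the controls and 1.48, 1.82 and 1.80 after CX-5461, and Cyp26a1 1.21, 1.27 and 1.21 in the controls and -0.98, -0.77 and -1.36 after CX-5461, log2 fold changes of 4.52 and -2.26. Stra6, the retinol transporter, rose by 1.63. Of 16 interferon-stimulated genes 5 rose and 9 fell: the chemokine Cxcl10 rose by 3.27, and Ddx58, the RNA sensor RIG-I, fell by 1.65. Of 28 glycolysis and hypoxia genes 20 (18 under both scalings) fell and 3 rose, with the stress gene Ndrg1 at -1.47 and Pfkfb4, a regulator of glycolysis, at 2.54. Cholesterol synthesis and uptake genes gave 16 (15 under both scalings) lower and 0 (3 after centring) higher of 26. Their median was -0.29 beside -0.28 over all genes, with Scd1, a fatty acid desaturase, at -1.11. Extracellular matrix and integrin genes gave 8 higher and 10 (8 under both scalings) lower of 24, from Col7a1, a collagen of anchoring fibrils, at 2.22, to Itga5, the fibronectin receptor chain, at -1.73.

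Chromatin genes were mostly lower. Of 24 Polycomb, DNA methylation and TET genes 21 fell, 4 at least 2-fold, and 1 rose (median -0.69). Tet3 was the gene that rose: it read 3.41, 3.45 and 3.06 in the controls and 4.73, 4.98 and 4.80 after CX-5461, a log2 fold change of 1.53. Tet2, the related enzyme that also oxidises methylcytosine, read 6.86, 6.89 and 6.85 in the controls and 5.13, 5.68 and 5.41 after CX-5461 and fell by 1.46. Jarid2, a Polycomb partner, fell by 1.26. Of 16 histone genes listed as replication-independent 13 (12 under both scalings) fell, with the linker histone gene H1f0 at -0.89. The lowest value in that list, -0.92, belonged to Hist3h2a, a gene of a histone cluster to which the description does not apply. Of 15 genes of the elongation factor P-TEFb and its partners 10 (9 under both scalings) fell and 2 rose, or 4 after centring. Their median ran from -0.28 to 0.04 over the 4 scalings, with Aff4 at -1.17 and Ell3 at 0.80.

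Genes of the 2-cell embryo, which a small share of stem cells express, gave 5 higher and 4 (3 under both scalings) lower of 26. Dux, the factor that turns them on, read -2.46, -1.98 and -3.76 in the controls and 0.83, 0.67 and 0.94 after CX-5461, a rise of 3.55 ± 0.26 (SE; limma adjusted p = 7.02e-25) from 3 to 11 reads in the controls to 74 to 117. The family Usp17le, whose copies share reads, rose by 0.83. Of 9 aryl hydrocarbon receptor genes 3 rose and 3 fell. Cyp1b1, an oxidising enzyme of the pathway, rose by 1.07. Cyp1a1, its classical target, read -0.07, 0.34 and -0.64 in the controls and -0.03, 0.11 and 0.04 after CX-5461, where the groups overlapped (log2 fold change 0.16 ± 0.14, limma adjusted p = 0.313). Across the 4 scalings 26 lists kept a median below 0 and 9 a median above 0. The medians of the 2-cell, Nodal, Notch, NRF2, P-TEFb, RGS, matrix, WNT, mesoderm, oxidative phosphorylation, primitive endoderm, proteasome and ribosomal protein lists changed sign.

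The place of 4 h in the time course was read from direct contrasts between treated groups, whose spread comes from the fit of all 7 groups. Against CX-5461 at 2 h, 47.5% of genes were called, 20.7% higher and 26.8% lower at 4 h, and after centring 67.0%, 26.7% and 40.2%. The 4 largest rises between the times under the rule for named genes included Slco2b1, an organic anion transporter, and Otog, of the inner ear. Slco2b1 had a mean of -1.73 ± 0.21 (SD, n = 3) in controls, -1.12 ± 0.21 at 2 h and 3.04 ± 0.09 at 4 h, a difference of 4.16 ± 0.18 between the times (SE; limma adjusted p = 2.38e-44). Otog was 3.90 higher at 4 h than at 2 h. The largest falls between the times were in Nfib (-2.53), Spic (-2.16), Msc (-2.14) and Pax6 (-2.12).

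The p53 targets differed in how much of their rise came after 2 h. Mdm2 had a mean of 9.31 ± 0.14 (SD, n = 3) at 2 h and 9.50 ± 0.14 at 4 h, a difference of 0.19 ± 0.10 that was not called as deposited (limma adjusted p = 0.127) and was after centring (limma adjusted p = 2.36e-05). Cdkn1a was lower at 4 h than at 2 h (difference -0.48, limma adjusted p = 5.35e-05). Apaf1 rose further, by 1.87, as did Ptprv, by 1.79, and Trp73, by 1.73. Fas rose by another 2.13.

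Between 4 h and 8 h of CX-5461, 63.7% of genes were called, 58.8% higher and 4.85% lower at 8 h, and after centring 57.8%, 25.8% and 32.0%, so lower genes made up 7.62% of calls as deposited and 55.3% after centring. Several genes that had fallen at 4 h were higher again at 8 h under both scalings. Bmp4 had a mean of 2.38 ± 0.23 (SD, n = 3) at 4 h and 4.37 ± 0.08 at 8 h, a difference of 1.99 ± 0.13 (SE; limma adjusted p = 2.52e-27). Prdm14 had 4.70 ± 0.06 in the controls, 2.30 ± 0.14 at 4 h and 4.62 ± 0.04 at 8 h. Pax6 differed by 2.30, Lef1 by 1.69, Cyp26a1 by 2.44, Foxd3 by 1.51 and Nanog by 0.97. Of the 18 unfolded protein response genes 17 were higher at 8 h than at 4 h as deposited and 16 after centring, with Xbp1 at 1.33.

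Several genes that rose at 4 h were lower at 8 h than at 4 h. Rgcc, a cell cycle regulator induced by p53 and complement, had means of -0.99 ± 0.18 (SD, n = 3) in the controls, 2.57 ± 0.20 at 4 h and -0.90 ± 0.17 at 8 h. The difference of -3.47 ± 0.19 (SE; limma adjusted p = 2.33e-33) was the largest fall between these times of any tested gene. Pou4f3 differed by -1.80, Trp73 by -1.77, Wnt9a by -1.71, Fosl1 by -1.53 and Rgs14 by -1.20. These 5 were still above the control at 8 h, from 2.29 for Trp73 to 4.64 for Rgs14, while Rgcc was at 0.09 ± 0.19 (SE; limma adjusted p = 0.709). Hes3 fell further, by -1.16. Krt5 was 0.67 higher at 8 h as deposited, and this call was lost after centring (limma adjusted p = 0.131).

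**Figure D4:**
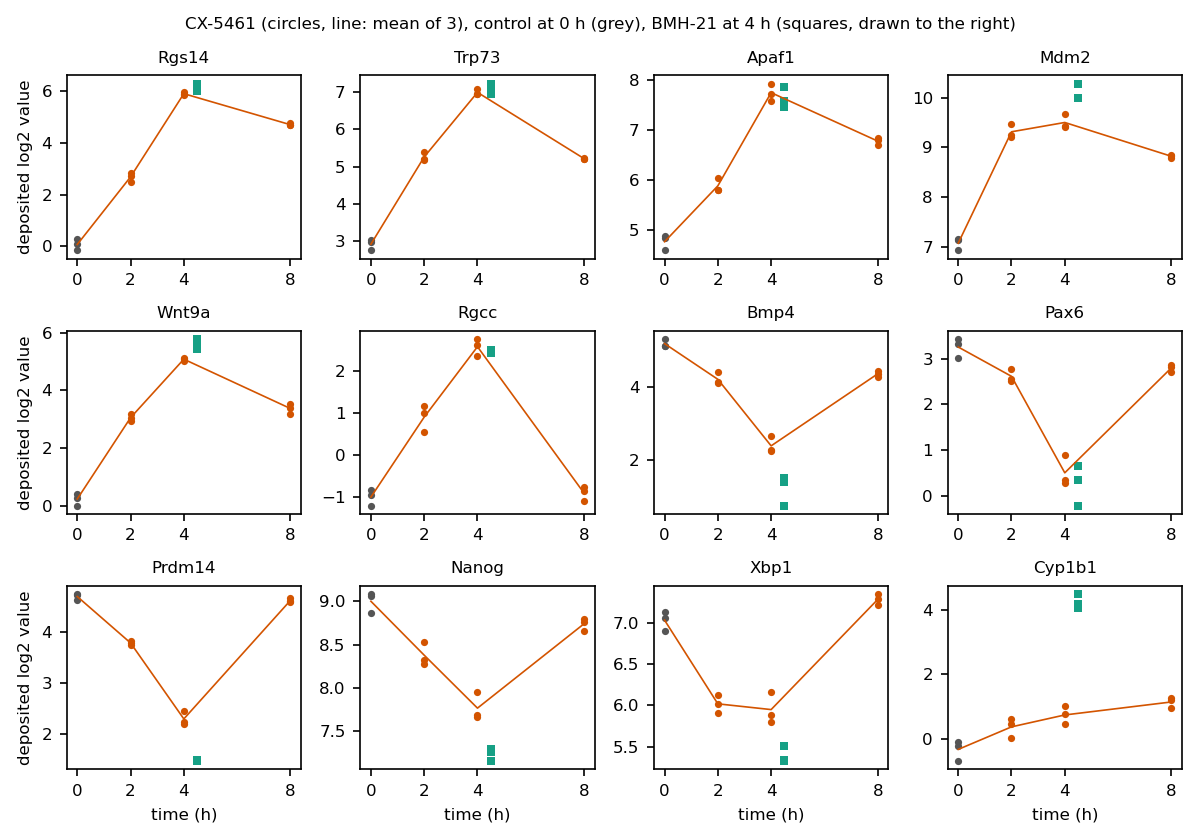
Deposited log2 values (vertical axis, a separate range per gene) of 12 named genes against time in h: control at 0 h in grey, CX-5461 at 2, 4 and 8 h in orange with a line through the means, and BMH-21 at 4 h as green squares drawn slightly to the right, 3 libraries each. Rgcc and Trp73 are highest at 4 h, Bmp4, Pax6 and Prdm14 are lowest at 4 h, and BMH-21 and CX-5461 lie furthest apart for Cyp1b1.

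At the same time and dose, the 2 inhibitors differed for fewer genes than either time step. Against BMH-21 at 4 h, 17.8% of genes were called, 8.49% higher and 9.35% lower with CX-5461. After centring 45.8% were called, 18.5% and 27.4%, and lower genes made up 52.4% of calls as deposited, 59.7% centred and 42.2% with median-ratio factors. On the deposited scale this split rested on single libraries: lower genes made up 36.5% of calls without CX-5461 replicate 1 (777 lower), 74.5% without CX-5461 replicate 2 (747 higher, 2184 lower), 43.3% without CX-5461 replicate 3 (731 lower), 30.1% without BMH-21 replicate 1 (662 lower), 63.8% without BMH-21 replicate 2 (780 higher) and 60.6% without BMH-21 replicate 3 (820 higher). The widest differences were in aryl hydrocarbon receptor targets. Cyp1a1 had a mean of 0.04 ± 0.07 (SD, n = 3) with CX-5461 and 6.07 ± 0.15 with BMH-21, a difference of -6.03 ± 0.14 (SE; limma adjusted p = 2.93e-71). Cyp1b1 differed by -3.51 and Ahrr, the repressor of the receptor, by -2.73. Of the 9 tested genes in that list 8 were lower with CX-5461 than with BMH-21 under both scalings.

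Foxd3, Zic5 and Zic2 stood on the other side: they were lower than control with both agents and less so with CX-5461. Foxd3 had 4.02 ± 0.25 (SD, n = 3) with CX-5461 and 1.40 ± 0.16 with BMH-21, a difference of 2.62 ± 0.12 (SE; limma adjusted p = 4.31e-40). Zic5 differed by 2.36 and Zic2 by 1.94. Svop, a synaptic vesicle protein, was 1.89 higher with CX-5461. Bmp4 was 1.18 higher with CX-5461, Spry4 1.55, Otx2 1.19 and Lefty1 1.03. The p53 lists gave genes in both directions: with CX-5461 relative to BMH-21, 0 higher and 3 lower of 9 feedback genes, 4 and 5 of 14 cell cycle targets, 0 and 4 of 17 apoptotic targets and 1 and 3 of 19 metabolic and repair targets (after centring 0 and 6, 5 and 6, 3 and 5, and 5 and 5). Pmaip1 differed by -1.23 ± 0.12 (SE; limma adjusted p = 2.22e-16), Plk2 by -0.86, Cdkn1a by -0.72 and Mdm2 by -0.59. Krt5 differed by -1.16 ± 0.14 (SE; limma adjusted p = 1.72e-11). The difference was not called as deposited for Trp73 (-0.08 ± 0.11, SE), Apaf1 (0.12 ± 0.11) and Pax6 (0.24 ± 0.17), and after centring it was called for Apaf1 (limma adjusted p = 0.0404).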

How the data were processed

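RNA of 21 libraries (6 used for the main comparison) was made into polyadenylated, strand-marked sequencing libraries, per the labels' protocols. Per the submitters' processing notes the tools were Trim Galore 0.5.0, TopHat2 2.1.1, R 4.0.5, DESeq2 1.30.1, edgeR 3.32.1 and limma 3.46.0, with the build mm10. The counting program, annotation, strand setting and filters are not given in the sources used here. The deposited log2 values are, as the file's own steps show, log2 of reads plus 0.5 over a scaled library size: whole reads came back for every value, within a relative distance of 3.9e-14.

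Genes with a log2 value above 0 in at least 3 libraries (14666 of 20900) were fitted with limma 3.58.1 in R 4.3.3 (7 groups, empirical Bayes with trend), as deposited and after centring, and p-values were adjusted by Benjamini-Hochberg over all tested genes. The spread pooled over genes carried 111.5 prior degrees of freedom as deposited and 8.53 after centring, so the size of adjusted p-values far under the threshold of 0.05 depends on the scale. On simulated data for this comparison (14666 genes, noise drawn per gene with no shift of whole libraries) the fit recovered 94 of 100 genes changed by 1 on the log2 scale and 99 of 100 changed by 2, with 9 false calls. Named genes were the 3 given markers, the 12 largest rises and falls, preset core genes, the 2 largest rises and falls of each of 48 lists, and the 4 largest in each direction against 2 h, 8 h and BMH-21, all called under both scalings (core genes excepted), with a mean of at least 0 except for core genes. The 12 and the 4 largest were also taken only from genes whose values did not overlap between the 2 groups compared. That separation was therefore fixed by the choice. The comparison's members and lists were chosen with earlier results of these data known. Replicates of a group differed by more than sampling noise (chi-square over degrees of freedom 3.78 to 11.3). Alternatives were other scalings, filters, offsets, variance models, a replicate block and leaving out each library. Promoters came from RefSeq (GRCm38.p6) and were matched by symbol.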

Additional observations from a re-analysis of the deposited data

Results flagged for a closer look

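At 8 h, 8 named genes that fell at 4 h of CX-5461 were above the control, and the effects at both times, which share the 0 h libraries, had opposite signs. The difference between 8 h and 4 h, tested within the same fit, was 1.32 for Jund (limma adjusted p = 6.7e-21), an AP-1 subunit, with log2 fold changes of -0.66 at 4 h and 0.66 at 8 h. It was 1.09 for Krt8 and 1.75 for Rgs20. Among signalling genes it was 1.53 for Id1, a BMP target, and 1.22 for Tdgf1, the Nodal co-receptor. For the endoplasmic reticulum genes it was 1.51 for Manf and 1.298 for Hspa5. Eomes, a primitive streak factor, gave 1.92, from -1.05 at 4 h to 0.87 at 8 h. These 8 genes kept the opposite signs after centring, where Tdgf1 was -0.69 at 4 h and 0.15 at 8 h.

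Ahrr, the repressor of the aryl hydrocarbon receptor, had effects of opposite sign with the 2 inhibitors at 4 h: -0.60 with CX-5461 and 2.12 with BMH-21, a difference of -2.73 (limma adjusted p = 2.4e-20). It read -0.48, -0.67 and -0.64 in the controls and -1.43, -1.12 and -1.06 after CX-5461. Its lower level with CX-5461 lost the call without CX-5461 4 h replicate 1 (-0.49, limma adjusted p = 0.076).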

How the results depend on the processing

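Of 14666 tested genes 10403 were called for CX-5461 at 4 h against control. Over the other scalings, filters, offsets and variance models the count lay between 8986 and 11201. The numbers tested differed at these ends: 12102 with a log2 value above 2 in at least 3 libraries, and 20900 with no filter. With the same 14666 genes the count ran from 9969 (values below 0 set to 0) to 10877 (centred). Leaving out each library in turn gave 9170 to 10836 genes called, 2596 to 2941 higher, 6229 to 8240 lower and 2271 to 2575 changed at least 2-fold. After centring, an alternative chosen after seeing the data, it gave 10332 to 10598. With median-ratio factors 4885 genes were higher in place of 2899. The comparison with BMH-21 depended most on the scale: 2617 genes were called as deposited, 6719 after centring, 6116 with median-ratio factors, 6139 under quantile normalization and 6535 after centring with the replicate block. Leaving out each library gave 1687 (without CX-5461 4 h replicate 3) to 2931 there, 5733 to 7593 against 2 h and 7411 to 10238 between 8 h and 4 h. The cause was not tested.

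The replicate numbers did not pair the libraries (correlations of same-numbered deviations -0.0122, 0.0121 and 0.0358). With the replicate block 10268 genes were called against control (2866 higher, 7402 lower), 6764 against 2 h, 9133 between 8 h and 4 h and 2404 against BMH-21, and no named gene changed its call.

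Of 4041 alternatives over the log2 fold changes of 162 named genes, 4028 kept their direction and side of the threshold, and 156 genes did so throughout. Genes named for their change against control, core genes apart, had to be called under both scalings. For these, keeping the call after centring was fixed by that choice. Cyp1a1 turned to -0.20 under quantile normalization and -0.065 with values below 0 set to 0, and ranged from -0.095 (without control replicate 3) to 0.39 (without control replicate 2) over the libraries left out. It was called higher without control replicate 2, as deposited and centred (0.52), and with median-ratio factors (0.41). Krt8, Pou5f1, Npm1, Gata6 and Ahrr each lost their call under at least 1 alternative. Low read numbers limit genes near a log2 value of 0, such as Ahrr and Cyp1a1.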
